A study of Mus musculus with 8 samples.

Results

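Malat1, Neat1, Kcnq1ot1 and the small nucleolar RNA (snoRNA) host genes Gas5, Snhg1, Snhg8 and Snhg12 are long noncoding RNAs, and Gm37376 is an annotated transcript that lies antisense inside Malat1. These 8 gene symbols were taken by name from the 48321 symbols counted by RNA-seq in mouse natural killer (NK) cells. The cells were sorted as CD45+ TCRb- NK1.1+ from lung and spleen of C57/Bl6 mice, which were wild type (WT) or lacked Ccl5-PE, the proximal enhancer of the chemokine gene Ccl5 (KO). Each of the 4 groups of organ and genotype had 2 libraries, with no treatment named. Sex and age are described only for the study as a whole, which used both sexes, and not by library. Whether the 2 libraries of any group stem from different mice is not stated, and the p-values therefore measure a spread between libraries that may be technical.

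Malat1 is a stable nuclear transcript found in nuclear speckles, bodies rich in splicing factors, and Neat1 is the RNA scaffold around which paraspeckles form. SnoRNAs, which guide the modification of ribosomal RNA, are mostly cut from introns of host genes, and the spliced exons that are left over are often degraded by nonsense-mediated decay (NMD). Kcnq1ot1 is an antisense RNA made from the paternal copy of an intron of Kcnq1, and it silences genes of that imprinted domain in cis.

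The read counts on genes were 8444054 and 3992951 in WT lung, 4783978 and 7196662 in KO lung, 3882458 and 8299635 in WT spleen, and 3132963 and 26482366 in KO spleen. Levels are given in CPM, read counts scaled for depth, with library sizes corrected by the trimmed mean of M-values (TMM). A floor of 3 counts was between 0.115 and 0.979 CPM, which covers counting error only. Replicates of each group differed by more than counting noise, with a chi-square per degree of freedom of 1.38 in WT lung, 1.18 in KO lung, 1.35 in WT spleen and 1.37 in KO spleen.

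Ccl5, whose enhancer was deleted, had levels of 19518 and 18350 CPM in WT lung and 2992 and 3195 CPM in KO lung. In spleen its levels were 16679 and 15664 CPM in WT and 2676 and 2432 CPM in KO. All 4 KO libraries were below all 4 WT libraries, with log2 fold changes of -2.61 in lung and -2.67 in spleen. The lung change minus the spleen change of Ccl5 was 0.05 and not called, but it was called at 0.22 with library totals and at -0.30 with an offset that removes each library's trend with GC content (the GC offset). In a bulk sample, fewer cells that express a gene and less of its RNA per cell cannot be told apart. Xist was counted in every library, at 144 to 241 CPM, while Ddx3y, Kdm5d and Uty of the Y chromosome had 0 counts in all 8 libraries and Eif2s3y had 1 count, in WT spleen.

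The 12 NK cell markers were all detected, with Gzma as their most abundant gene. Their summed level was 55305 and 53832 CPM in WT lung, 43705 and 44067 CPM in KO lung, 39423 and 38828 CPM in WT spleen, and 52074 and 49773 CPM in KO spleen. In KO lung 3 of the 12 were called higher and 6 lower, beside 29.2% and 26.4% of all genes tested. In KO spleen 8 were called higher and 3 lower, beside 28.2% and 28.9%. The sums, like the Malat1 levels below, were highest in WT lung and lowest in WT spleen. Unlike Malat1, they were higher in KO spleen than in KO lung. Gzma alone was at 25399 and 24265 CPM in WT lung and at 15694 and 15278 CPM in WT spleen. Whether any change in the cells sorted had a part in the members' levels was not tested.

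Markers of other cells were present at lower levels. The B cell list, 5 of 6 genes tested and led by Ighm, summed to 296 and 308 CPM in WT lung, 248 and 253 CPM in KO lung, 517 and 531 CPM in WT spleen, and 632 and 617 CPM in KO spleen. The T cell list, 6 of 8 tested and led by Trbc1, summed to 434 and 415, 326 and 345, 561 and 549, and 634 and 600 CPM in the same order of groups. Both sums were higher in each spleen library than in each lung library. The myeloid list, 4 of 8 tested and led by Itgax, summed to 158 to 181 CPM over the 8 libraries, with Adgre1, S100a8 and S100a9 at 0. Lung epithelial and endothelial markers, 8 of 9 tested, summed to 333 and 322 CPM in WT lung, 460 and 499 CPM in KO lung, 65.2 and 75.4 CPM in WT spleen, and 67.2 and 68.6 CPM in KO spleen. Their most abundant gene, Sftpc, was counted in all 4 lung libraries and was at 0 in all 4 spleen libraries. The erythroid and platelet list, 6 of 7 tested and led by Hbb-bs, summed to 54.5, 56.2, 55.5 and 60.0 CPM in the 4 lung libraries and to 1.5, 1.87, 2.94 and 2.87 CPM in the 4 spleen libraries. The part of such cells in the members' levels was not tested.

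Each comparison asked how a transcript differed with the deletion in an organ, between the organs in a genotype, or between the deletion's differences in the 2 organs. A gene was called when its adjusted p in the quasi-likelihood test of edgeR, after Benjamini-Hochberg adjustment over 12595 genes, was under 0.05. All 8 members were among the genes tested, but Snhg12 passed the filter on low counts only through its 4 KO libraries, so its higher level in KO was partly needed for it to be tested at all.

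In lung, 1 of the 8 members was called higher in KO (Snhg12, with that limit) and 5 were called lower (Malat1, Gm37376, Neat1, Gas5 and Kcnq1ot1), while 29.2% of all genes tested were called higher and 26.4% lower. In spleen, 5 were called higher in KO (Malat1, Gm37376, Gas5, Snhg1 and Kcnq1ot1) and 1 lower (Neat1), beside 28.2% and 28.9% of all genes. The member medians of the log2 fold change were -0.28 in lung and 0.51 in spleen, and those of all genes tested were 0.02 and 0.00. With a change of at least 2-fold also required, Snhg12 was the 1 member called in lung, beside 13.6% of all genes, and since its KO libraries let it be tested nothing is read from that count. In spleen that stricter rule was met by 10.6% of all genes and by none of the 8 members, whose log2 fold changes in edgeR lay between -0.41 and 0.81.

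Between organs in WT, 5 members were called higher in lung (Malat1, Gm37376, Neat1, Gas5 and Kcnq1ot1) and 1 lower (Snhg8), beside 27.7% and 29.3% of all genes, and 2 were at least 2-fold apart (Malat1 and Gm37376), beside 15.9%. Between organs in KO, 3 were called higher in lung (Malat1, Gm37376 and Neat1) and 1 lower (Gas5), beside 33.9% and 31.7% of all genes. There the stricter rule was met by 16.2% of all genes and by none of the members, whose log2 differences in edgeR lay between -0.29 and 0.61. The difference between the KO changes, lung minus spleen, was called positive for 1 member (Snhg8) and negative for 5 (Malat1, Gm37376, Neat1, Gas5 and Kcnq1ot1), beside 32.5% and 29% of all genes. It was at least 2-fold for 3 members (Malat1, Gm37376 and Kcnq1ot1), beside 24.8%. Medians of the members were 0.40, 0.08 and -0.42 in these 3 comparisons, and those of all genes -0.01, 0.02 and 0.03. Malat1 and Gm37376 share a locus and are not independent of each other in these counts, and comparisons that share a group share its libraries.

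Several choices bore on many calls. With library totals in place of TMM scaling the median of all genes moved to 0.11 for KO lung, -0.12 for the organs in WT and 0.19 for the difference between the KO changes, and the share of called genes that were higher moved from 52.5% to 63.3%, from 48.6% to 36.9% and from 52.9% to 63.5%. For KO spleen the median moved to -0.065 and that share from 49.3% to 41.2%. The GC offset moved these shares the other way, to 43.6%, 50.7%, 45.9% and, for KO spleen, 52.6%, and that of the organs in KO from 51.7% to 44%. DESeq2 called 4507 genes in KO lung in place of 7000, and 4165 in KO spleen in place of 7195. With an assumed biological coefficient of variation (BCV) of 0.2 for every gene, in place of the common estimate of 2.50%, and a likelihood ratio test in place of the quasi-likelihood test, 6 member calls were made in place of 28. These were Snhg12 in KO lung, from which nothing is read for the reason given above, Malat1, Gm37376, Snhg8 and Kcnq1ot1 between the organs in WT, and Malat1 for the difference between the KO changes.

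**Figure D1:**
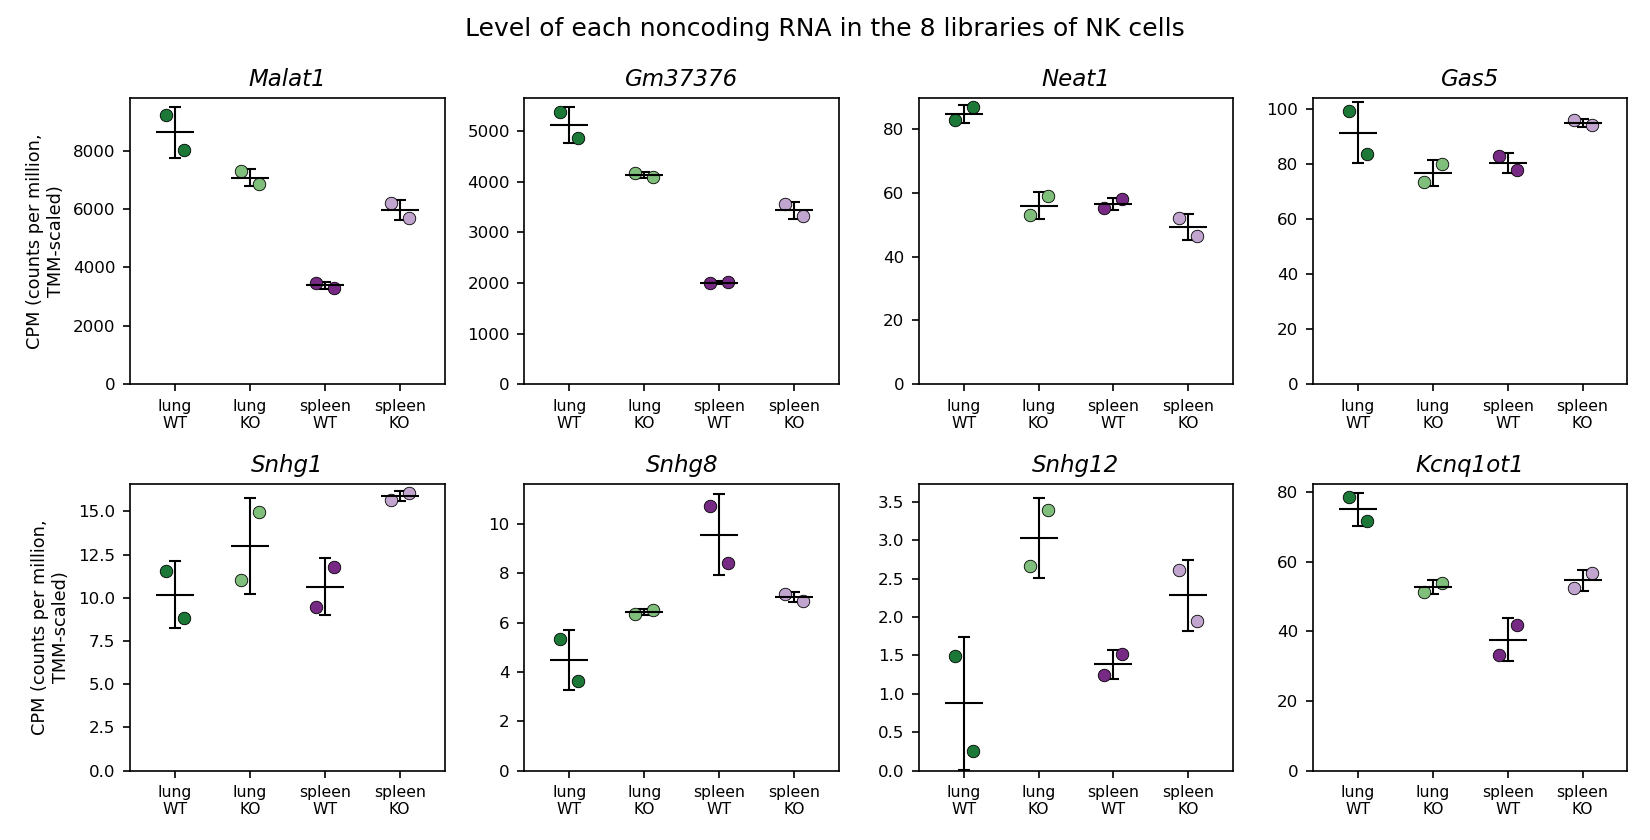
Level of each of the 8 transcripts in every library, in CPM on linear axes that start at 0, with points for the 2 libraries of each group and bars for their mean and SD. Malat1 and Gm37376 were highest in WT lung, with means of 8623 and 5121 CPM, and lowest in WT spleen, with means of 3392 and 2008 CPM.

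Malat1 is a gene of 6983 exonic bases on the reverse strand of chromosome 19 (GRCm38, chr19:5795690-5802672, ENSMUSG00000092341). Its level was 9237 and 8009 CPM in WT lung, 7294 and 6864 CPM in KO lung, 3479 and 3305 CPM in WT spleen, and 6195 and 5710 CPM in KO spleen. No 2 groups overlapped, and the order from the highest was WT lung, KO lung, KO spleen and WT spleen. The group means were 8623 ± 868 CPM in WT lung, 7079 ± 304 CPM in KO lung, 3392 ± 123 CPM in WT spleen and 5953 ± 343 CPM in KO spleen (SD, n = 2). Among all genes, Malat1 ranked between 4 and 6 by count in the WT lung, KO lung and KO spleen libraries and at 15 and 16 in the WT spleen libraries.

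Malat1 was lower with the enhancer deleted in lung and higher in spleen. In lung both KO libraries were below both WT libraries, with a log2 fold change of -0.29 (SE 0.0440, adjusted p 9.33e-07, edgeR's quasi-likelihood test, Benjamini-Hochberg adjusted). Without WT lung replicate 1, this value was -0.19 and still called. In spleen both KO libraries were above both WT libraries, with a log2 fold change of 0.81 (SE 0.0449, adjusted p 1.97e-17 in edgeR's quasi-likelihood test, Benjamini-Hochberg adjusted). The lung change minus the spleen change was -1.10 (SE 0.0628, adjusted p 1.47e-17, edgeR's quasi-likelihood test, Benjamini-Hochberg adjusted). WT lung exceeded WT spleen by a log2 difference of 1.35, the 14th smallest p of the 12595 genes, and KO lung exceeded KO spleen by 0.25. With the assumed BCV of 0.2 the KO lung, KO spleen and KO organ values were -0.28, 0.81 and 0.25 and no longer called.

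Gm37376 is a single-exon entry of 453 bases on the forward strand (chr19:5801941-5802393, ENSMUSG00000102349), all of them within the exon of Malat1. Its biotype in the annotation, TEC, stands for a transcript still to be experimentally checked. Its level was 5376 and 4866 CPM in WT lung, 4181 and 4089 CPM in KO lung, 1992 and 2024 CPM in WT spleen, and 3558 and 3322 CPM in KO spleen. The groups did not overlap and stood in the order of Malat1. Gm37376 had a log2 fold change of -0.31 in KO lung and 0.77 in KO spleen, with a difference of -1.08, and lung exceeded spleen by 1.35 in WT and 0.27 in KO. All 5 values were called. Under the assumed BCV of 0.2 the lung, spleen, difference and KO organ values, -0.31, 0.78, -1.09 and 0.27, were not.

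For every 100 reads counted on Malat1, 58.2 and 60.8 were counted on Gm37376 in WT lung, 57.3 and 59.6 in KO lung, 57.3 and 61.2 in WT spleen, and 57.4 and 58.2 in KO spleen. The ratio stayed between 57.3 and 61.2 while Malat1 itself differed 2.79-fold between its highest and lowest libraries. Per exonic base, the read density on Gm37376 was 8.83 to 9.44 times that on Malat1. When reads are counted as unstranded, HTSeq's default overlap mode gives a read that lies on both genes of such a pair to neither, yet both were counted in every library. The library kit is named NEBNext Ultra in the sample notes and NEBNext Ultra II in the study's methods, without the word directional in either. The strand setting, the gene annotation and whether the libraries kept the strand are not stated, so sense and antisense reads of this locus cannot be told apart, and both levels are uncertain.

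**Figure D2:**
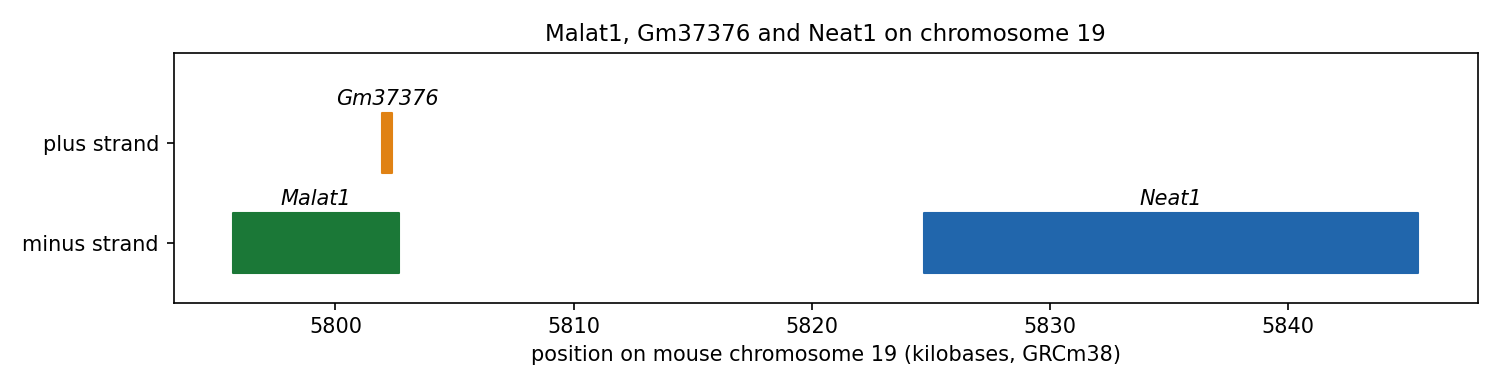
Map of the part of chromosome 19 (GRCm38) that holds Malat1, Gm37376 and Neat1, with positions in kilobases along the axis and a separate row for each strand. Gm37376 lies inside Malat1 on the other strand, and 22035 bases separate Malat1 from Neat1.

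The share of reads on no gene and the summed mitochondrial mRNAs stood at their highest and lowest in the same groups as Malat1. Reads on no gene were 54.9% and 55.0% of uniquely aligned reads in WT lung, 53.9% in each KO lung library, 52.7% in each WT spleen library, and 53.5% and 54.1% in KO spleen, so that the KO groups overlapped. Mitochondrially encoded mRNAs, 8 of 13 tested and led by mt-Cytb, summed to 13075 and 12121 CPM in WT lung, 8005 and 7875 CPM in KO lung, 6720 and 6764 CPM in WT spleen, and 9016 and 8735 CPM in KO spleen. Lung WT was highest and WT spleen lowest in both measures, as for Malat1. Other measures of the libraries stood in another order. Multimapped reads were lowest in KO lung (27.1% and 26.9%) and highest in KO spleen (29.9% and 29.7%). Reads ambiguous between genes were lowest in WT lung (0.686% and 0.691%) and highest in KO spleen (0.768% and 0.746%). Of the 8 mitochondrial mRNAs, 7 were called lower in KO lung, beside 26.4% of all genes, and 8 higher in KO spleen, beside 28.2%, or 6 and 4 with the GC offset. In KO, lung against spleen, 1 was called higher and 7 lower, beside 33.9% and 31.7% of all genes, where Malat1 was higher. Immediate early genes, which respond fast to stimulation and tissue handling, ran differently, with sums of 1622 and 1667 CPM in WT lung, 2769 in each KO lung library, 1344 and 1273 CPM in WT spleen, and 875 and 898 CPM in KO spleen. Led by Btg2, 12 of their 18 tested genes were called higher and 1 lower in KO lung, beside 29.2% and 26.4% of all genes, and 13 were called lower in KO spleen, beside 28.9%. In lung against spleen 11 were called higher and 4 lower in WT (median 0.61), beside 27.7% and 29.3%. In KO all 18 were called higher in lung (median 2.62), beside 33.9%. Malat1 too was higher in lung in both genotypes. The part of any of these in the Malat1 differences was not tested.

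Nuclear speckle proteins were more often called lower than higher in KO lung, and the reverse in KO spleen. In KO lung 2 of 24 were called higher and 12 lower, with a median log2 fold change of -0.11, beside 29.2% and 26.4% of all genes. In KO spleen 13 were called higher and 2 lower, with a median of 0.15, beside 28.2% and 28.9%. With library totals these counts were 5 and 8 in lung and 9 and 3 in spleen, and with the GC offset 5 and 10 in lung and 11 and 4 in spleen. In WT lung against WT spleen 20 were called higher and 1 lower (median 0.38), beside 27.7% and 29.3%. In KO 8 were called higher and 4 lower in lung (median 0.03), beside 33.9% and 31.7%. The difference between the KO changes was called positive for 3 and negative for 16, with a median of -0.34, beside 32.5% and 29%. Luc7l3, a splicing factor of the U1 particle, had mean levels of 262 CPM in WT lung, 174 CPM in KO lung, 188 CPM in WT spleen and 276 CPM in KO spleen. Its log2 fold change was -0.59 in KO lung and 0.55 in KO spleen. Rsrp1, an arginine and serine rich protein, went the other way, with means of 340, 730, 791 and 592 CPM in these groups and log2 fold changes of 1.10 in KO lung and -0.42 in KO spleen. Under the assumed BCV of 0.2 neither the Luc7l3 values (-0.59 and 0.55) nor the spleen value of Rsrp1 (-0.42) was called.

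Malat1 has no poly(A) tail of the usual kind. RNase P and Elac2 cut out a small tRNA-like RNA at its end, and a triple helix, which Mettl16 binds, protects what remains. Of the 14 tested genes of this end processing list, 1 was called higher and 5 lower in KO lung (median -0.13), beside 29.2% and 26.4% of all genes, and 8 were called higher and 3 lower in KO spleen (median 0.35), beside 28.2% and 28.9%. In lung against spleen 4 were called higher and 3 lower in WT (median 0.03), beside 27.7% and 29.3%, and 3 higher and 8 lower in KO (median -0.33), beside 33.9% and 31.7%. The difference between the KO changes was called positive for 2 and negative for 8 (median -0.39), beside 32.5% and 29% of all genes. For lung against spleen in WT, library totals gave 3 higher and 4 lower, the GC offset 4 and 1, and DESeq2 3 higher and none lower. For KO lung against WT lung, library totals gave 2 higher and 3 lower, the GC offset 1 and 8, and DESeq2 1 and 2. For KO spleen against WT spleen, DESeq2 gave 2 higher and 1 lower. Elac2 itself had mean levels of 12.1 CPM in WT lung, 22.1 CPM in KO lung, 17.2 CPM in WT spleen and 9.01 CPM in KO spleen. Its log2 fold changes were 0.87 in KO lung and -1.06 in KO spleen, opposite in sign to those of Malat1 in both organs. The lung value, 0.88 with the assumed BCV of 0.2, was not called there.

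Of 13 tested genes around the Malat1 and Neat1 loci, 10 were called higher in KO lung, with a median log2 fold change of 0.68, beside 29.2% of all genes. In KO spleen 1 was called higher and 6 lower, with a median of -0.19, beside 28.2% and 28.9%. In WT lung against WT spleen 2 were called higher and 7 lower (median -0.28), beside 27.7% and 29.3%. In KO 10 were called higher in lung than in spleen (median 0.66), beside 33.9%. The difference between the KO changes was called positive for 10 (median 0.90), beside 32.5%. With the GC offset the counts were 7 higher in KO lung, 3 higher and 5 lower in KO spleen, and 6 higher and 3 lower for the organs in KO. That offset gave a difference called positive for 6 and negative for 2. Rela, which encodes a subunit of the transcription factor NF-kB, had mean levels of 38.9 CPM in WT lung, 76.3 CPM in KO lung, 71.6 CPM in WT spleen and 38.4 CPM in KO spleen. Its log2 fold changes were 1.0 in KO lung and -0.87 in KO spleen, and 0.59 and -0.54 with the GC offset, called in each case.

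Neat1 has 20771 exonic bases in the annotation (chr19:5824708-5845478, reverse strand, ENSMUSG00000092274). Its 4 annotated transcripts cannot be told apart in these counts. Its level was 82.8 and 86.8 CPM in WT lung, 53.0 and 59.0 CPM in KO lung, 55.2 and 58.0 CPM in WT spleen, and 52.2 and 46.4 CPM in KO spleen. Lung WT stood above the other groups, KO spleen was lowest, and the libraries of WT spleen and KO lung overlapped. Group means were 84.8 ± 2.82 CPM in WT lung, 56.0 ± 4.27 CPM in KO lung, 56.6 ± 1.94 CPM in WT spleen and 49.3 ± 4.14 CPM in KO spleen (SD, n = 2). Unlike Malat1, Neat1 was lower in KO in both organs.

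The log2 fold change of Neat1 in KO lung was -0.58 (SE 0.0779, adjusted p 8.22e-08, edgeR's quasi-likelihood test, Benjamini-Hochberg adjusted), with both KO libraries below both WT libraries. In spleen it was -0.27 (SE 0.0769, adjusted p 0.00317, edgeR's quasi-likelihood test, Benjamini-Hochberg adjusted), again with both KO libraries below both WT libraries. That spleen call was lost without WT spleen replicate 2 (-0.22), without KO spleen replicate 2 (-0.13) and with DESeq2 (-0.22). WT lung was above WT spleen by 0.56, and KO lung above KO spleen by 0.26. The KO organ call was lost without KO lung replicate 2 (0.16), without KO spleen replicate 2 (0.12) and with DESeq2 (0.22). The lung change minus the spleen change was -0.31, a call that was lost with library totals (-0.15), with DESeq2 (-0.37) and without KO lung replicate 1 (-0.23). All 5 Neat1 calls were lost with the assumed BCV of 0.2, at -0.60, -0.21, 0.58, 0.19 and -0.39 in the order given here.

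Of 17 paraspeckle proteins tested, 6 were called higher and 3 lower in KO lung (median 0.08), beside 29.2% and 26.4% of all genes, and 4 higher and 6 lower in KO spleen (median -0.09), beside 28.2% and 28.9%. The KO spleen counts were 1 higher and 8 lower with library totals, 2 and 9 with the GC offset and 1 and 6 with DESeq2. In KO lung they were 9 and 3, 4 and 2, and 2 and 3 in the same order. In lung against spleen 4 were called higher and 5 lower in WT (median -0.01), beside 27.7% and 29.3%. These WT counts were 3 and 6 with library totals, 3 and 4 with the GC offset and 3 and 1 with DESeq2. In KO 8 were called higher and 3 lower in that comparison (median 0.16), beside 33.9% and 31.7%. The difference between the KO changes was called positive for 8 and negative for 4 (median 0.17), beside 32.5% and 29%. The most abundant gene of this list was Hnrnpk. Sfpq, a protein that paraspeckles need to form, had mean levels of 122 CPM in WT lung, 76.3 CPM in KO lung, 77.3 CPM in WT spleen and 82.1 CPM in KO spleen. Like Neat1 it was highest in WT lung, and it had a log2 fold change of -0.67 in KO lung, which was not called with the assumed BCV of 0.2 (-0.67). In KO spleen its log2 fold change was 0.14 and not called, while RLE and upper-quartile scaling, the GC offset, leaving out WT lung replicate 1 and leaving out KO spleen replicate 1 gave calls at 0.15, 0.15, 0.19, 0.15 and 0.17. Its difference between the KO changes was -0.82, called above and not with the assumed BCV of 0.2 (-0.76).

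**Figure D3:**
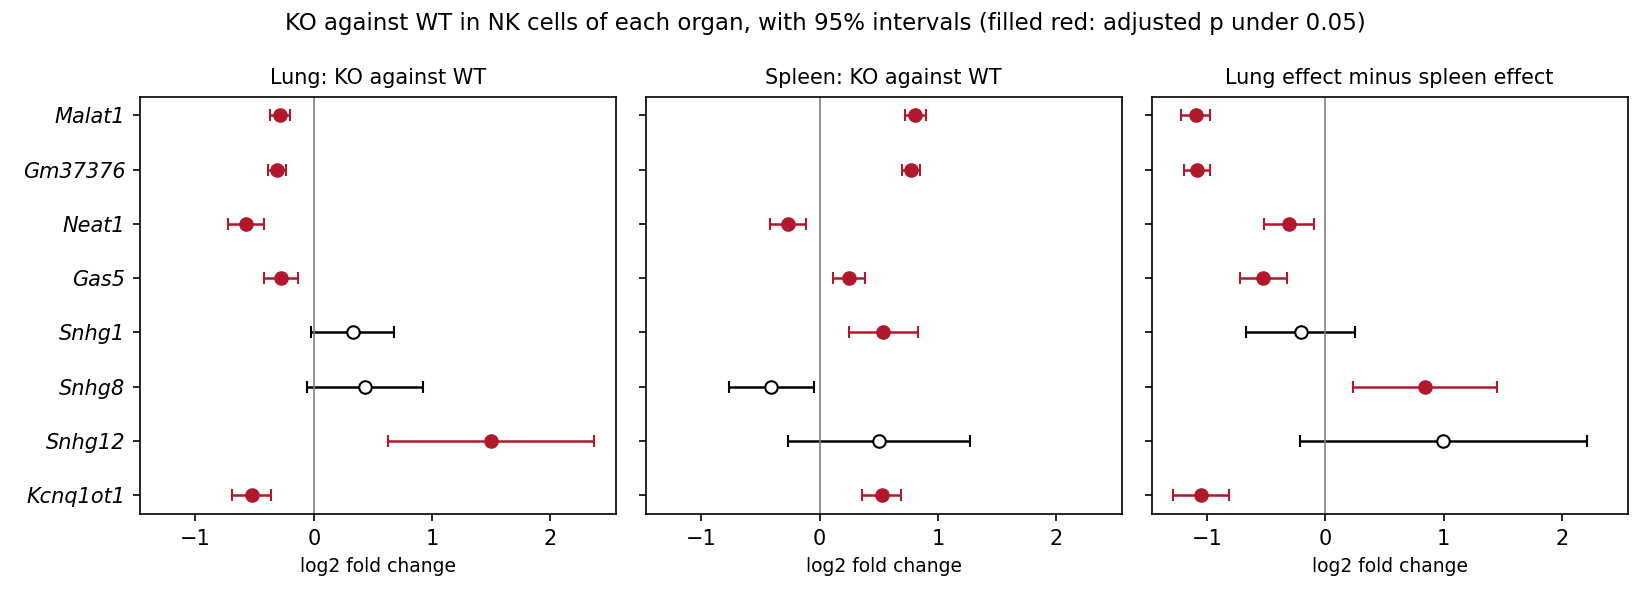
Log2 fold change of each transcript for the KO groups against WT, separately by organ, and the lung value minus the spleen value, with bars for 95% intervals and filled red points for an adjusted p under 0.05. Malat1 stands at -0.29 in lung and 0.81 in spleen, and Neat1 is below 0 in both.

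The 4 snoRNA host members hold 24 annotated snoRNA entries, 10 in Gas5, 8 in Snhg1, 1 in Snhg8 and 5 in Snhg12, where Snord80 and Snora16a have 2 entries each. All 24 lie within host exons on the same strand, where HTSeq's default mode gives a shared read to neither gene. Their 0 counts in every library therefore say nothing about reads from the snoRNAs. Gas5 (chr1:161034422-161038539, ENSMUSG00000053332), named for its build-up in cells whose growth is arrested, had levels of 99.1 and 83.4 CPM in WT lung, 73.3 and 79.9 CPM in KO lung, 82.7 and 77.6 CPM in WT spleen, and 96.0 and 93.9 CPM in KO spleen. The groups lay close together. Spleen KO overlapped with WT lung and WT spleen with KO lung, and the highest library was 1.35 times the lowest. Group means were 91.2 ± 11.1 CPM in WT lung, 76.6 ± 4.66 CPM in KO lung, 80.1 ± 3.6 CPM in WT spleen and 94.9 ± 1.46 CPM in KO spleen (SD, n = 2).

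Gas5 was lower in both KO lung libraries than in both WT lung libraries, with a log2 fold change of -0.28 (SE 0.0746, adjusted p 0.00190, edgeR's quasi-likelihood test, Benjamini-Hochberg adjusted). Without WT lung replicate 1, the library with the highest level, this was -0.12 and not called, and with library totals it was -0.18 and called. In spleen both KO libraries were above both WT libraries, with a log2 fold change of 0.25 (SE 0.0677, adjusted p 0.00196, edgeR's quasi-likelihood test, Benjamini-Hochberg adjusted). That call was lost with the GC offset (0.13), with DESeq2 (0.26) and without WT spleen replicate 2 (0.19). The lung change minus the spleen change was -0.52, and -0.35 with the GC offset. Between organs Gas5 was called at 0.23 in WT and at -0.29 in KO. The WT organ call was lost with library totals (0.13), the GC offset (0.13), DESeq2 (0.23), without WT lung replicate 1 (0.09) and without WT spleen replicate 2 (0.17). With the assumed BCV of 0.2 the lung, spleen, WT organ, KO organ and difference values were -0.25, 0.25, 0.19, -0.31 and -0.50, and none of them was called in that likelihood ratio test, against 5 in edgeR's quasi-likelihood test.

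Snhg1 (chr19:8723475-8726443, ENSMUSG00000108414) had levels of 11.6 and 8.81 CPM in WT lung, 11.1 and 15.0 CPM in KO lung, 9.49 and 11.8 CPM in WT spleen, and 15.7 and 16.1 CPM in KO spleen, from 34 to 420 counts. Spleen KO was above the other groups, which overlapped one another. In KO spleen both libraries exceeded both WT libraries, with a log2 fold change of 0.54 (SE 0.148, adjusted p 0.00221, edgeR's quasi-likelihood test, Benjamini-Hochberg adjusted). That call was lost with DESeq2 (0.57), with the assumed BCV of 0.2 (0.56) and without KO spleen replicate 2 (0.51). In lung the log2 fold change was 0.33 and not called, but it was called with library totals (0.42), with the GC offset (0.45) and without KO lung replicate 1 (0.50). It was 0.06 without KO lung replicate 2 and 0.59 without WT lung replicate 1, and not called in either case. The difference between the organs' KO changes was -0.21 and not called, so the lung and spleen values are not shown to differ, and its sign turned with the GC offset (0.07) and without WT lung replicate 1 (0.05). The organ differences, -0.05 in WT and -0.26 in KO, were not called. The WT value turned positive without WT lung replicate 2 (0.08) and without WT spleen replicate 2 (0.16), and the KO value was called without KO lung replicate 2 (-0.54).

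Snhg8 (chr3:123507552-123508404, reverse strand, ENSMUSG00000104960), host of Snora24, had levels of 5.35 and 3.63 CPM in WT lung, 6.35 and 6.53 CPM in KO lung, 10.7 and 8.41 CPM in WT spleen, and 7.18 and 6.89 CPM in KO spleen, from 14 to 180 counts. No 2 groups overlapped, and WT spleen was highest and WT lung lowest, the reverse of Malat1. WT lung was below WT spleen by a log2 difference of -0.95 (SE 0.231, adjusted p 0.000632, edgeR's quasi-likelihood test, Benjamini-Hochberg adjusted). The KO changes, 0.43 in lung and -0.41 in spleen, were not called, although both libraries of each KO group lay on one side of both WT libraries. The lung value was 0.27 without WT lung replicate 2 and 0.82 without WT lung replicate 1, and not called in either case. The spleen value was called with library totals (-0.47), with at least 10 counts required in every library (-0.42), with the GC offset (-0.45) and without WT spleen replicate 2 (-0.63). Their difference, lung minus spleen, was called at 0.84 (SE 0.309, adjusted p 0.0176, edgeR's quasi-likelihood test, Benjamini-Hochberg adjusted). It was not called with DESeq2 (0.89), with the assumed BCV of 0.2 (0.90), or without WT lung replicate 2 (0.68), KO lung replicate 2 (0.82), WT spleen replicate 1 (0.72) or KO spleen replicate 2 (0.78).

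Snhg12 (chr4:132308623-132311024, ENSMUSG00000086290) was near the limit of detection. Its counts were 12 and 1 in WT lung, 13 and 25 in KO lung, 5 and 13 in WT spleen, and 8 and 51 in KO spleen. In CPM these were 1.49 and 0.259, 2.66 and 3.40, 1.25 and 1.52, and 2.61 and 1.95. Both KO groups were above both WT groups, and the WT groups overlapped. In KO lung the log2 fold change of Snhg12 was 1.5, given as a description because the KO libraries alone brought it past the filter. Without a filter it was also 1.5, and called. Without WT lung replicate 1, which leaves a single count in that group, it was 3.50. It was not called without WT lung replicate 2 (1.05), without KO lung replicate 2 (1.28) and with DESeq2 (1.60). In KO spleen the log2 fold change was 0.50, or 0.86 without KO spleen replicate 2, and not called in either case. The difference between the KO changes was 1.0 and not called, and 0.55 without WT lung replicate 2. Without WT lung replicate 1 it was 2.99. WT lung then rests on 1 count, under the floor of 3 counts, so nothing is read from any Snhg12 value without that library. The organ difference in WT was -0.39, which went to -2.38 without WT lung replicate 1 and to 0.07 without WT lung replicate 2. In KO it was 0.61, or 0.25 without KO spleen replicate 2, and none of these organ values was called.

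The counts hold 15 other snoRNA host genes, of which 11 were tested, and Snhg7 was at 0. In KO lung 3 were called higher and 3 lower (median -0.22), beside 29.2% and 26.4% of all genes, and in KO spleen 1 higher and 1 lower (median -0.09), beside 28.2% and 28.9%. In lung against spleen 3 were called higher and 3 lower in WT (median 0.19), beside 27.7% and 29.3%. In KO 3 were called higher and 1 lower in that comparison (median 0.01), beside 33.9% and 31.7%. The difference between the KO changes was called positive for 3 and negative for 3 (median 0.01), beside 32.5% and 29%. With library totals KO spleen had 2 lower and none higher, and with the GC offset 1 higher and 3 lower. Both settings called 3 positive and 1 negative differences. For KO lung against WT lung, DESeq2 called 1 higher and 1 lower. The most abundant was Snhg5. Snhg17 had mean levels of 16.6 CPM in WT lung, 9.61 CPM in KO lung, 6.69 CPM in WT spleen and 9.01 CPM in KO spleen, with a log2 fold change of -0.79 in KO lung. That value was -0.79 and not called with the assumed BCV of 0.2.

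Of 15 core proteins of snoRNA particles, 4 were called higher and 5 lower in KO lung (median 0.03), beside 29.2% and 26.4% of all genes, and 6 higher and 4 lower in KO spleen (median -0.04), beside 28.2% and 28.9%. In KO lung library totals gave 6 higher and 4 lower, the GC offset 1 higher and 4 lower, and DESeq2 1 higher and 3 lower. In lung against spleen 5 were called higher and 2 lower in WT (median 0.13), beside 27.7% and 29.3%. In KO 8 were called higher and 4 lower in that comparison (median 0.25), beside 33.9% and 31.7%. These KO counts were 9 and 2 with library totals, 5 and 3 with the GC offset and 4 and 2 with DESeq2. The difference between the KO changes was called positive for 6 and negative for 6 (median 0.15), beside 32.5% and 29%. The GC offset and DESeq2 each called 2 positive and 6 negative differences. Of 14 NMD factors, 2 were called higher and 5 lower in KO lung (median -0.06), or 4 and 4 with library totals and 1 and 7 with the GC offset, and 5 higher and 4 lower in KO spleen (median -0.02). In lung against spleen 7 NMD factors were called higher and 1 lower in WT (median 0.22). In KO 5 were called higher and 4 lower in that comparison (median 0.01) or, with the GC offset, 5 higher and 6 lower. Their difference between the KO changes was called positive for 4 and negative for 6 (median -0.06). Upf3b, which links the exon junction complex to NMD, had mean levels of 43.9 CPM in WT lung, 20.8 CPM in KO lung, 16.6 CPM in WT spleen and 23.6 CPM in KO spleen. Its log2 fold changes were -1.11 in KO lung and 0.60 in KO spleen. The spleen call was lost without KO spleen replicate 2 (0.42) and with the assumed BCV of 0.2 (0.52).

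SnoRNA host genes are known for transcripts that start in a run of pyrimidines (C and T), a feature shared with ribosomal protein mRNAs. Promoter sequences from RefSeq (GRCm38.p6) were at hand for 6 of the 8 members, and not for Neat1 and Gm37376. The bases around the annotated start, 20 on each side, are shown for these members because host genes are known for such a run. Capitals mark the longest pyrimidine run that covers the start or reaches within 3 bases of it. The criterion for a run was chosen after the sequences had been seen.
Snhg12: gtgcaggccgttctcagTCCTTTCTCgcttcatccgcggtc
Snhg8: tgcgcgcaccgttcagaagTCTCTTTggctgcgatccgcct
Gas5: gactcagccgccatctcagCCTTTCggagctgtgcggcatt
Snhg1: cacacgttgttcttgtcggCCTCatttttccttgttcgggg
Malat1: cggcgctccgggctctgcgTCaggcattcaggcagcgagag
Kcnq1ot1: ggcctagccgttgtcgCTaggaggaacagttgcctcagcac
These windows lie at chr4:132308658-132308698 for Snhg12, chr3:123508316-123508356 (reverse strand) for Snhg8, chr1:161035146-161035186 for the second of 2 Gas5 entries, chr19:8723467-8723507 for Snhg1, chr19:5802652-5802692 (reverse strand) for Malat1 and chr7:143296527-143296567 (reverse strand) for Kcnq1ot1. The run was 9 bases in Snhg12, 7 in Snhg8, 6 in the Gas5 entry shown and 3 in its other entry, 4 in Snhg1, and 2 in Malat1 and in Kcnq1ot1. Over all 32851 promoters the median run was 3, and 26.1% had a run of at least 5 bases. Among 74 ribosomal protein promoters the median was 4 and 45.9% had such a run, and among 15 promoters of other snoRNA hosts the median was 4 and 40% had one. A run is a description of the letters and not of a regulatory site.

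Short motifs were counted on both strands of the 300 bases of each promoter, as a description only. CCAAT was in 2 of the 6 members (Snhg8 and Kcnq1ot1) and in 37.4% of all promoters, and GGGCGG in 3 members (Gas5, Snhg1 and Snhg8) and in 35.7%. TATAAA was in 2 members (Snhg1 and Snhg8) and in 13.6% of all promoters, TGTGGT in 1 (Snhg8) and in 16.8%, and TGACGTCA in 1 (Gas5) and in 1.79%. CACGTG, in 7.15% of all promoters, and CCGGAAG, in 8.86%, were not in these windows. None of the 7 motifs was found in the windows of Malat1 and Snhg12.

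Cytosolic ribosomal protein genes are also known for this kind of start. Of 78 tested, 57 were called higher and 4 lower in KO spleen (median 0.29), beside 28.2% and 28.9% of all genes. In KO lung 20 were called higher and 11 lower (median 0.01), beside 29.2% and 26.4%, which became 11 higher and 34 lower with the GC offset and 27 higher and 4 lower with library totals. In WT lung against WT spleen 4 were called higher and 39 lower (median -0.19), beside 27.7% and 29.3%, or 2 and 56 with library totals, 10 and 30 with the GC offset and 2 and 25 with DESeq2. In KO 66 were called lower in lung than in spleen (median -0.41), beside 31.7%. The difference between the KO changes was called positive for 7 and negative for 38 (median -0.20), beside 32.5% and 29% of all genes. It was 14 and 24 with library totals, 2 and 56 with the GC offset and 2 and 27 with DESeq2. Their most abundant gene was Rpl4. Among the host members Gas5 and Snhg1 were also called higher in KO spleen, while Snhg8 and Snhg12 were not.

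Kcnq1ot1 spans 93092 bases on the reverse strand (chr7:143203458-143296549, ENSMUSG00000101609), inside Kcnq1 on the other strand. Kcnq1 itself had 0 to 2 counts in a library. The level of Kcnq1ot1 was 78.4 and 71.8 CPM in WT lung, 51.2 and 54.0 CPM in KO lung, 33.2 and 41.9 CPM in WT spleen, and 52.6 and 56.8 CPM in KO spleen. Lung WT was highest and WT spleen lowest, as for Malat1, and the 2 KO groups overlapped between them. Group means were 75.1 ± 4.73 CPM in WT lung, 52.6 ± 2.01 CPM in KO lung, 37.6 ± 6.17 CPM in WT spleen and 54.7 ± 3.03 CPM in KO spleen (SD, n = 2).

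Kcnq1ot1 fell in both KO lung libraries, with a log2 fold change of -0.53 (SE 0.0843, adjusted p 1.95e-06, edgeR's quasi-likelihood test, Benjamini-Hochberg adjusted). It rose in both KO spleen libraries, with a log2 fold change of 0.53 (SE 0.0852, adjusted p 2.14e-06, edgeR's quasi-likelihood test, Benjamini-Hochberg adjusted). The lung change minus the spleen change was -1.05 (SE 0.12, adjusted p 1.22e-09, edgeR's quasi-likelihood test, Benjamini-Hochberg adjusted). WT lung was above WT spleen by 0.96. In KO the organ difference was -0.09 and not called, and its sign turned with the GC offset (0.02) and without KO spleen replicate 2 (0.01). With the assumed BCV of 0.2 the lung, spleen and difference values, -0.51, 0.54 and -1.05, were not called.

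Of 8 tested genes of the Kcnq1 imprinted domain, 5 were called higher and 1 lower in KO lung (median 0.37), beside 29.2% and 26.4% of all genes, and 1 higher and 5 lower in KO spleen (median -0.40), beside 28.2% and 28.9%. With the GC offset these counts were 4 and 2 in lung and 1 and 3 in spleen. In lung against spleen 1 was called higher and 3 lower in WT (median -0.07), beside 27.7% and 29.3%. There the GC offset gave 3 higher and 2 lower. In KO 7 were called higher and 1 lower in that comparison (median 0.71), beside 33.9% and 31.7%. The difference between the KO changes was called positive for 6 and negative for 1 (median 0.74), beside 32.5% and 29%. The most abundant, Tspan32, had mean levels of 369 CPM in WT lung, 307 CPM in KO lung, 316 CPM in WT spleen and 361 CPM in KO spleen, and its log2 fold changes were -0.26 in KO lung and 0.18 in KO spleen. Nap1l4, a histone chaperone gene, had means of 188, 228, 245 and 192 CPM and log2 fold changes of 0.28 and -0.36. The GC offset gave -0.53 and 0.40 for Tspan32 and 0.17 for Nap1l4 in KO lung, all called. Library totals gave -0.16 and 0.12 for Tspan32, both called. None of the 4 values was called with the assumed BCV of 0.2 in that likelihood ratio test (-0.26, 0.19, 0.28 and -0.35). Counts from the 2 parental copies cannot be told apart here. Whether Kcnq1ot1 had a part in the levels of these genes was not tested.

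Other long noncoding RNAs had a median below 0 in KO lung and above 0 in KO spleen. The counts hold 24 of them, of which 17 were tested, and H19, Rmrp and Terc were at 0. In KO lung 4 were called higher and 5 lower (median -0.33), beside 29.2% and 26.4% of all genes, or 2 and 6 with the GC offset and 2 and 5 with DESeq2. In KO spleen 9 were called higher and 1 lower (median 0.36), beside 28.2% and 28.9%, or 4 and 1 with DESeq2. Of the lung values against spleen, 12 were called higher in WT (median 0.68), beside 27.7% of all genes. In KO 9 were called higher and 5 lower in that comparison (median 0.30), beside 33.9% and 31.7%, or 6 and 2 with DESeq2. The difference between the KO changes was called positive for 2 and negative for 9 (median -0.82), beside 32.5% and 29%. With DESeq2 it was called positive for 2 and negative for 5. The most abundant, Tug1, had mean levels of 269 CPM in WT lung, 189 CPM in KO lung, 197 CPM in WT spleen and 173 CPM in KO spleen. Like Neat1 it was lower in KO in both organs, with log2 fold changes of -0.51 and -0.21, of which the spleen call was lost without WT spleen replicate 2 (-0.12) and without KO spleen replicate 2 (-0.17). Dleu2 had means of 185, 109, 117 and 156 CPM and log2 fold changes of -0.78 in KO lung and 0.42 in KO spleen. The GC offset gave -0.26 and -0.42 for Tug1 and -0.31 and 0.14 for Dleu2, all called. With the assumed BCV of 0.2 the Tug1 values (-0.51 and -0.18) and the Dleu2 values (-0.76 and 0.42) were not called.

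On the scale of RPKM, the CPM for each kilobase of exon, which allows levels of genes to be compared, the members spanned a wide range. Malat1 was at 473 to 1323 RPKM over the libraries, Gas5 at 19.5 to 26.4, Snhg8 at 4.25 to 12.6, Snhg1 at 2.97 to 5.42, Neat1 at 2.23 to 4.18, Kcnq1ot1 at 0.357 to 0.843 and Snhg12 at 0.108 to 1.42. Gm37376 was at 4398 to 11868 RPKM, from reads that cannot be assigned to a strand with certainty. Exon lengths here take in every annotated isoform, retained introns included, so a short isoform's level is understated.

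The genes whose levels followed a member most closely over the 8 libraries were found by the root mean square difference of centred log2 CPM, among genes with a mean log2 CPM above 5, which left 5102 or 5103 of the 12595 for each member. For Malat1 these were Gm37376 at 0.0361, Gm42659 at 0.104 and Gm42724 at 0.125. For Neat1 they were Tug1 at 0.0819, Ccdc50 at 0.0828 and C2cd5 at 0.0914. Gas5 was followed by Abracl at 0.0398, Pdcd5 at 0.0456 and Usp34 at 0.0475, and Kcnq1ot1 by Rbm27 at 0.0879, Zfp318 at 0.0889 and Gbp8 at 0.0976. The other hosts had larger differences, with Igbp1 nearest to Snhg1 at 0.142, Chic2 nearest to Snhg8 at 0.147 and Zfp740 nearest to Snhg12 at 0.553.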

How the data were processed

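RNA-seq of 8 libraries (reads of 50 bp) was used. The authors aligned reads to mm10 with HISAT2 2.1.0, counted them on genes with HTSeq (0.11.1 in the deposited notes, 0.11.0 in the study's methods), and deposited raw counts per gene symbol without normalization. Of uniquely aligned reads, 52.7% to 55.0% were on no gene (no_feature). The software was edgeR 4.0.16 and DESeq2 1.42.0, with limma 3.58.1 loaded, under R 4.3.3. After filterByExpr over the 4 groups and TMM scaling, a model with a mean for each group was fitted, and 5 comparisons were tested by edgeR's quasi-likelihood F test, Benjamini-Hochberg adjusted over 12595 genes, at 0.05. Standard errors came from the F statistic, and 95% intervals from them. With 2 libraries against 2, no exact test can give a p below 0.333.

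The members and lists were chosen with earlier results of these data known. Named are the members, Ccl5, and from each list some of its 4 most abundant genes and of those with the smallest p up or down whose libraries did not overlap, besides the genes most like a member. The lists were other snoRNA hosts, snoRNA particle proteins, NMD factors, paraspeckle and nuclear speckle proteins, Malat1 end processing, other long noncoding RNAs, the Kcnq1 domain, Malat1 and Neat1 neighbours, ribosomal proteins, cell markers, immediate early genes, mitochondrial mRNAs and sex-linked genes. Positions and exon lengths came from GENCODE for GRCm38. Alternatives were DESeq2, RLE, upper-quartile and library-total scaling, scaling without Malat1 and Gm37376, all genes with a count, a minimum of 10 counts in each library, only the 4 libraries of a comparison, replicate number as a block, a GC offset (spline with 5 degrees of freedom) alone and with that block, an assumed BCV of 0.2 with a likelihood ratio test, counts per exonic base, a prior count of 0.5 and leaving out each library. The steps were tested on simulated data. Raw reads were not used.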

Additional observations from a re-analysis of the deposited data

Results flagged for a closer look

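The change with the deletion differed between lung and spleen, by the test of the difference itself, for 6 of the 8 members. The lung log2 fold change minus that of spleen was -1.10 for Malat1, -1.08 for Gm37376, -1.05 for Kcnq1ot1, -0.52 for Gas5, -0.31 for Neat1 and 0.84 for Snhg8. Malat1, Gm37376, Gas5 and Kcnq1ot1 fell in lung KO and rose in spleen KO, and Neat1 fell in both. Of all genes tested, 32.5% were called with a positive and 29% with a negative difference. Genes named from the lists differed in the same test by -1.14 (Luc7l3), 1.51 (Rsrp1), 1.93 (Elac2), 1.87 (Rela), -0.82 (Sfpq), -0.29 (Tug1), -1.20 (Dleu2), -1.19 (Snhg17), -1.71 (Upf3b), -0.44 (Tspan32) and 0.64 (Nap1l4). Several of these were named for small p-values in comparisons that this difference combines. Nothing is therefore read from their being called. The Tug1 value turned to 0.16 with the GC offset and was called in that opposite direction. It was -0.13 and not called with library totals. The GC offset gave 1.14 for Rela, -0.44 for Dleu2 and -0.93 for Tspan32, and library totals gave -0.28 for Tspan32, all called. The assumed BCV of 0.2 with its likelihood ratio test gave -0.76 for Sfpq, -0.32 for Tug1, -1.21 for Snhg17, -0.46 for Tspan32 and 0.63 for Nap1l4, none of them called. That alternative also left Gm37376 (-1.09), Kcnq1ot1 (-1.05), Gas5 (-0.50), Neat1 (-0.39) and Snhg8 (0.90) without a called difference, and Malat1 (-1.10) with one. It ended the lung and spleen calls of the members named here as falling or rising. The differences of Neat1 and Snhg8, the lung and spleen changes of Gas5 and the spleen change of Neat1 lost their calls under other alternatives too, given with their values above. What underlies these differences was not tested.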

How the results depend on the processing

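Of 786 recomputed member values, 716 kept their direction and their side of the threshold, 51 lost a call, 10 gained one and 9 turned in sign. Of 2376 recomputed list counts, 2040 stayed within 1.5 times the reported count. With an assumed BCV of 0.2 and a likelihood ratio test the genes called were 1557 in KO lung, 1144 in KO spleen, 2011 for the organs in WT, 2316 for the organs in KO and 2017 for the difference between the KO changes, in place of 7000, 7195, 7185, 8259 and 7753. Of these called genes, 66.1%, 31.5%, 43.9%, 65.6% and 69.7% were higher or positive, in place of 52.5%, 49.3%, 48.6%, 51.7% and 52.9%. Members called there were 1 (Snhg12, which passed the filter by its KO libraries alone), 0, 4, 0 and 1. DESeq2 called 4507 genes in KO lung, and 4165 genes and 3 members in KO spleen. Its median BCV was 11.5%, against 2.85% in edgeR, and 9815 genes were at its lowest dispersion estimate. Leaving out 1 library gave 4448 to 7493 genes called in KO spleen. Gm37376 had 57.3 to 61.2 reads for every 100 of Malat1, and 8.83 to 9.44 times its density per exonic base, with a median of 8.97.

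The assumed BCV gave Malat1 values of -0.28 in KO lung, 0.81 in KO spleen and 0.25 for the organs in KO, and Neat1 values of -0.60, -0.21, 0.58, 0.19 and -0.39 in the 5 comparisons, none of them called in that test. DESeq2 gave Neat1 values of -0.22 in KO spleen, 0.22 for the organs in KO and -0.37 for the difference, and library totals -0.15 for the difference. Leaving out 1 library gave Neat1 values of -0.30 to -0.13 in KO spleen, 0.12 to 0.33 for the organs in KO and -0.45 to -0.23 for the difference. Signs turned for Snhg1 between the organs in WT (-0.31 to 0.16 over the libraries left out, positive at 0.075 without WT lung replicate 2 and at 0.16 without WT spleen replicate 2) and for its difference (0.072 with the GC offset, 0.063 with the replicate block added, and -0.48 to 0.046 over the 8 libraries left out, the highest without WT lung replicate 1). They also turned for Snhg12 between the organs in WT (-2.38 to 0.067 over the libraries left out, the highest without WT lung replicate 2) and for Kcnq1ot1 between the organs in KO (0.024 with the GC offset, 0.039 with the block added, -0.13 to 0.015 over the libraries left out, the highest without KO spleen replicate 2). Among other named genes, signs turned for the difference of Tug1 (0.16 and 0.17 with the GC offset alone and with the block, both called), for the organs in KO for Snhg17 (-0.087 and -0.088), and for the difference of Ccl5 (-0.30 with both, -0.023 without KO spleen replicate 2), which was 0.22 and called with library totals. The cause was not tested. Snhg12 had no value with at least 10 counts in every library. A library left alone in its group is assumed to vary like the others. The prior count of 0.5 changed 1 nearest gene, of Snhg12. The replicate block ended no member call, though equal numbers are not said to pair libraries.

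Depth limits Snhg1, Snhg8 and Snhg12, with 1 to 420 counts in a library. Levels at the Malat1 locus rest on a strand setting that is not stated. Of 28 member calls, 6 (Snhg12 in KO lung among them) were made with the assumed BCV and its likelihood ratio test, and the parts of these 2 choices were not separated. Calls over all genes fell under them too, as given above.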
